A study of Mus musculus with 12 samples.

Results

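The FoxA genes are Foxa1, Foxa2 and Foxa3, and they were taken by symbol from the gene column of the deposited clique tables. All 3 were listed in both networks, each in exactly 1 clique per age, and they are 3 of the 9595 protein-coding genes listed at either age. H3K27ac Hi-ChIP, which joins proximity ligation to immunoprecipitation of histone H3 acetylated at lysine 27 and so recovers contacts of active promoters and enhancers, was performed on liver hepatocytes from male C57BL/6 mice aged 5 months (young) and 25 months (old). There were 6 libraries per age, from 2 biological replicates in 3 batches. The young mice were bought from a breeder at 3 months and the old mice came at 23 months from a national ageing stock held by the same breeder, and all were kept for 2 months before use, so age and stock cannot be told apart. Hepatocytes were pelleted at low speed after collagenase perfusion. The labels name no transgene and no treatment other than age. The authors' tables give 1 network per age, made of 5 kb bins (nodes) grouped into sets called cliques, with the genes attached to each clique. Each network is taken to combine the libraries of its age. With 1 network per age there is no spread between animals and no test, and the values below describe these 2 networks.

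FoxA proteins are forkhead transcription factors known as pioneer factors, because they can bind their sites in compacted chromatin and make them accessible to other factors. In liver they act with Hnf4a, Gata4 and other factors during specification of hepatocytes, and afterwards at enhancers of genes for plasma proteins, glucose and lipid metabolism. Foxa1 and Foxa2 overlap in liver specification and in bile acid handling, Foxa2 is tied to the fasting response through insulin signalling, and Foxa3 is the member most abundant in adult hepatocytes and takes part in glucose homeostasis.

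The 3 genes lie on different chromosomes and all are on the minus strand, so that positions downstream of the start have lower coordinates. In GRCm38, the assembly of mm10, Foxa1 (ENSMUSG00000035451.7) spans chr12:57540628-57548029, Foxa2 (ENSMUSG00000037025.11) chr2:148042877-148046969 and Foxa3 (ENSMUSG00000040891.6) chr7:19013283-19023539. The 250 bases before the start are shown for each gene because the bin holding that start was in the gene's clique at both ages. They are RefSeq sequences of GRCm38.p6 on the minus strand, written 5′ to 3′ at chr12:57546112-57546361, chr2:148046970-148047219 and chr7:19023540-19023789. Capitals mark matches on either strand to the forkhead-type letters TGTTTAC or their variant TGTTTGC, the Hnf4a-type letters CAAAGTCCA, the TATA box as TATAAA, the CCAAT box, the GC box as GGGCGG and the E-box as CACGTG.
Foxa1: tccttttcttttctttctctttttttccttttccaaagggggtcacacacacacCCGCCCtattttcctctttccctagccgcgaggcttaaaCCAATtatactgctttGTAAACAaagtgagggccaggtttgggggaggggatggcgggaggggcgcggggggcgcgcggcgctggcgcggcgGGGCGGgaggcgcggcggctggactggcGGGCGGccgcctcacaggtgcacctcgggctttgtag
Foxa2: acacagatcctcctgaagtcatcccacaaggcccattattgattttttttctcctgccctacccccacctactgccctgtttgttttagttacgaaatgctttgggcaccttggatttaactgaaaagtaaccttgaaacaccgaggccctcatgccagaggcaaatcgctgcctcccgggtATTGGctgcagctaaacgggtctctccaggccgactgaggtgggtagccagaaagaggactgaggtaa
Foxa3: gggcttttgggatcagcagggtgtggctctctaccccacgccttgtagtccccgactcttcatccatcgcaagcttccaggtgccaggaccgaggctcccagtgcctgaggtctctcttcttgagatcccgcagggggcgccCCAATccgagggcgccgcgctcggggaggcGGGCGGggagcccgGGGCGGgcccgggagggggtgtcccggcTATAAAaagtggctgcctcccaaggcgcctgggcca

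The forkhead-type letters TGTTTAC were found in the Foxa1 window, on the opposite strand as GTAAACA from 141 to 135 bases before the start, and in neither of the others. They occurred in 3.17% of the 32851 promoter windows of the same length. The Foxa3 window held TATAAA from 36 to 31 bases before its start, letters present in 12.4% of all windows. CCAAT was found once in each window (33.8% of all windows). GGGCGG was found 3 times for Foxa1, 2 times for Foxa3 and not in this Foxa2 window (32.7% of all windows). The variant TGTTTGC (4.30% of all windows), the Hnf4a-type letters (0.384%) and the E-box (6.02%) were in none of the 3 windows. No 2 matches overlapped. A match describes these letters only and is no evidence of binding. The table gives 3 starts for Foxa2, at 148046969, 148045948 and 148045464, all in the same bin, and the sequence shown precedes the first. The window before 148045948 held GGGCGG on both strands. That before 148045464 held GGGCGG and TATAAA, both on the opposite strand. The RefSeq span of Foxa1 extends past the start used here.

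Foxa1 and Foxa2 were in smaller cliques in old hepatocytes than in young, and Foxa3 in a much larger one. Foxa1 was listed in a clique of 40 bins in young and 25 in old, and Foxa2 in cliques of 44 and 28. Foxa3 was in a clique of 12 bins in young and 121 in old. Clique size was compared as log2((old bins + 1)/(young bins + 1)), which was -0.66 for Foxa1, -0.63 for Foxa2 and 3.23 for Foxa3. Foxa1 and Foxa2 sat at the middle of the distribution. Over the 6257 protein-coding genes listed at both ages the median was -0.63 (quartiles -1.38 and -0.18), and 81.5% of them had fewer bins in old. Neither reached the 2-fold decrease that 35.7% of those genes showed. Among the 335 genes listed at both ages and in 40 to 44 young bins, the median old size was 20 bins. The quartiles were 10 and 30, a range that includes both Foxa1 and Foxa2.

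Foxa3 lay at the other end of the distribution. An increase of any size was found for 13.0% of genes listed at both ages and one of at least 2-fold for 3.77%. Only 24 genes, Foxa3 included, had a log2 value as high as that of Foxa3. Sympk, Fbxo46, Dmwd and Six5, which share its old clique, were among the 24, so these are not separate cliques. For the 131 genes listed at both ages and in 12 young bins, the median old size was 8 bins. Of these, 3 were in 100 or more old bins, namely Foxa3 with Sympk and Fbxo46, which share its cliques at both ages. Taking each size relative to the mean clique of its age (10.5 bins in young and 6.75 in old) moved the median of genes listed at both ages by 0.61 to -0.01. On that scale Foxa1 was at -0.03, Foxa2 at -0.01 and Foxa3 at 3.85. Relative to its age's mean, neither Foxa1 nor Foxa2 differed by more than 0.1 on the log2 scale, and Foxa3 remained far higher in old. How many valid contacts lie behind each network is unknown.

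**Figure D1:**
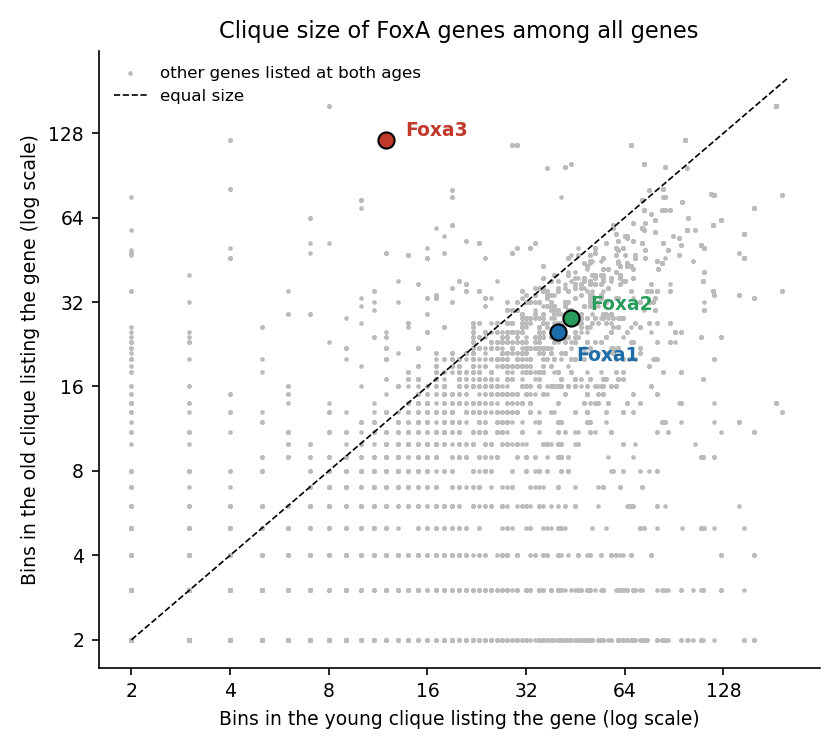
Bins in the young clique (horizontal, log scale) and the old clique (vertical, log scale) that list each gene, for the 6257 protein-coding genes listed at both ages (grey) and the FoxA genes (coloured). Foxa1 (40 and 25) and Foxa2 (44 and 28) lie below the dashed line of equal size with most genes, and Foxa3 (12 and 121) lies far above it.

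The start of every FoxA gene lay in a bin of its own clique at both ages. This is usual for a listed gene: 94.3% of the genes listed in young and 91.9% of those listed in old had a start in a bin of a clique listing them. Over all 17492 protein-coding genes with a start in the RefSeq table, listed or not, 40.3% had a start in a young bin and 32.6% in an old bin. The 3 genes differed in the rest of the clique. At Foxa1 the bins at the gene and many over the neighbouring gene Mipol1 were shared by both ages. At Foxa2 a dense block was shared and most of the bins outside it were in young only. At Foxa3 the bin of the start lay in a small local clique in young and in a clique with most of its bins upstream in old.

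Of the 40 young bins of Foxa1, 21 were present in the old network (52.5%, 95% Wilson interval 37.5 to 67.1), all in the single old clique that lists Foxa1. Of the 25 old bins 21 were young bins and 4 were absent in young (84.0% shared, 65.3 to 93.6). Such intervals cover counting error only, and neighbouring bins are not independent. The shared bins gave a Jaccard index (shared bins over bins in either clique) of 0.477. Among the 362 young cliques within 25% of this size, the median share present in old was 65.5% (quartiles 54.1 and 74.3) and the median best Jaccard index 0.51, so the Foxa1 clique lay somewhat below the lower quartile in retention and near the middle in Jaccard index. With 1 bin of tolerance in matching, 72.5% of the young bins had an old partner.

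The Foxa1 clique was long and sparse in young. It spanned 1110 kb (chr12:56680001-57790000) and filled 18% of the bins in its span, and 354 of those 362 cliques were at least as filled (median 50.6%). The old clique spanned 360 kb (chr12:57195001-57555000) and filled 34.7%. The outermost bins made the difference in span: 3 young bins below the old span, as far as 864 kb downstream, and 2 above it, as far as 241 kb upstream, were not in the old network. Inside the old span there were 35 young bins and 25 old bins of 72 possible. The 4 bins from 57535001 to 57555000, which hold the gene, were in the clique at both ages. Mipol1 lies downstream of Foxa1 and under most of the clique: 25 young and 19 old clique bins overlapped it, 16 of them the same. The lncRNA gene Gm16246 within it had 3 bins at both ages. Slc25a21, a mitochondrial carrier gene, had 3 young bins and 1 old bin.

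The genes listed with Foxa1 were the same at both ages, namely Slc25a21, Prps1l3, Mipol1, Gm11025 and Gm16246, of which the first 3 are protein-coding. Ttc6, whose span overlaps that of Foxa1 on the upstream side, was listed at neither age. The clique had no rival nearby: within 500 kb of the start all 37 young bins and all 25 old bins belonged to it. For 5019 of the genes listed at both ages, the share of such bins in the gene's own clique was computed. Its median was 63.0% in young and 47.2% in old. Of these genes, 410 reached the share of Foxa1 in young and 298 in old. Neighbouring genes share bins, so they are not all separate loci.

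**Figure D2:**
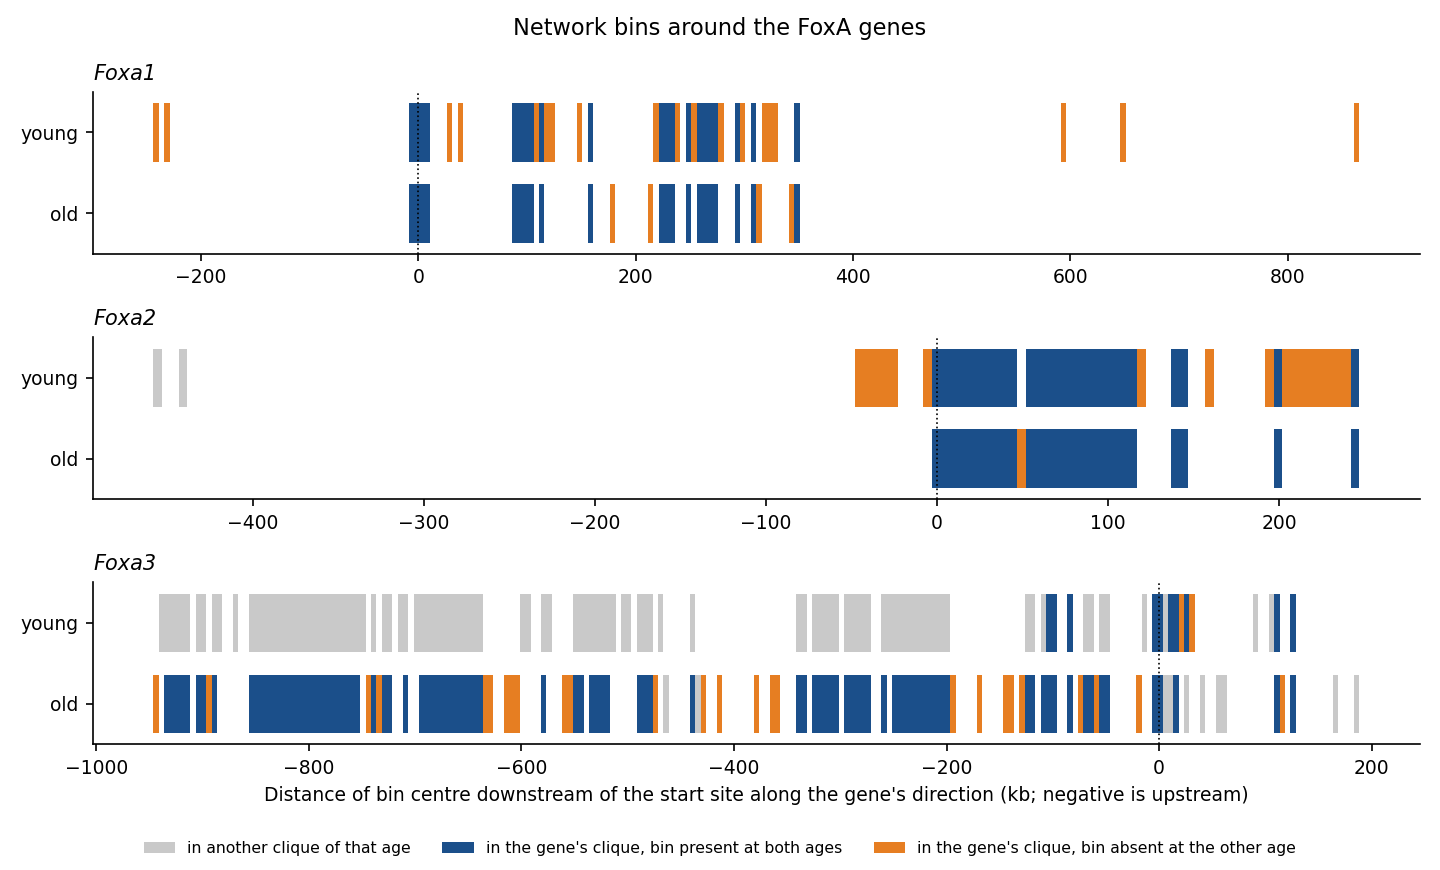
Bins of 5 kb around each FoxA gene in the young (upper) and old (lower) network, by distance of the bin centre from the gene's start in kb, with downstream to the right. Blue bins are in the gene's clique and present at both ages, and orange bins are in it and absent at the other age. Grey bins are in other cliques. In young, the outermost bins of Foxa1 and most outer bins of Foxa2 are orange. Grey young bins upstream of Foxa3 are blue in old.

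In young, Foxa2 had the most densely filled clique of the 3, and in old its fill was close to that of Foxa3 (56.3%). Its 44 young bins spanned 295 kb (chr2:147800001-148095000) and filled 74.6% of it, against a median of 52.0% (quartiles 37.4 and 65.1) in 320 young cliques of like size. The 28 old bins spanned 250 kb (chr2:147800001-148050000) and filled 56.0%, above the median of 46.8% in 346 old cliques of like size. Of the young bins 27 were present in old (61.4%, 46.6 to 74.3), all in the old Foxa2 clique, and of the 28 old bins 1 was absent in young (96.4% shared, 82.3 to 99.4). The Jaccard index was 0.60, and 223 of the 320 young cliques of like size had one no higher. The median share present in old among them was 66.7% (55.5 to 74.4 between quartiles).

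Most of the shared bins formed 1 block that begins at Foxa2. The longest run of adjacent bins in the old clique had 24 bins over 120 kb, at chr2:147930001-148050000, and 23 of its 24 positions were also young clique bins. It covers Foxa2 and the whole of 9030622O22Rik, a lncRNA gene downstream of it, over which 20 of 21 bins were in the young clique and 21 of 21 in the old. All 18 young bins with centres 5 to 100 kb downstream of the start were present in old, as were 6 of 9 from 100 to 200 kb. Of 9 bins beyond 200 kb, 1 was present. The old clique ended at the bin that holds the start: the 6 young bins upstream of that bin, reaching 45.5 kb away, were not in the old network. The pseudogene Gm14108 lies under 1 of them, and it was listed with Foxa2 in young only, together with Gm27420. 9030622O22Rik was listed at both ages, and no other protein-coding gene was listed with Foxa2 at either.

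For scale, retention by distance was pooled over the 1373 genes in cliques of 30 to 55 young bins, where genes that share a clique count its bins repeatedly. Young bins within 5 kb of a start were present in old in 89.1% of gene and bin pairs. The share was 70.9% from 5 to 100 kb downstream, 66.0% from 100 to 200 kb and 59.5% beyond 200 kb. Upstream it was 69.0% from 5 to 100 kb and 63.1% beyond. From 5 to 100 kb downstream the Foxa2 clique had 100% (82.4 to 100), where the pooled share was 70.9%. Beyond 200 kb downstream it had 11.1% (1.99 to 43.5), beside 59.5%. From 5 to 100 kb upstream it had 0 of 6 (0 to 39.0%), beside 69.0%. Pooling evens out single cliques, and the spread between genes was not computed, so these values do not show whether Foxa2 is unusual. Foxa1 had 4 of 6, 3 of 7 and 11 of 22 bins present in the 3 downstream classes, and its intervals include the pooled shares. The positions of the Foxa2 bins had been seen before these classes were set.

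**Figure D3:**
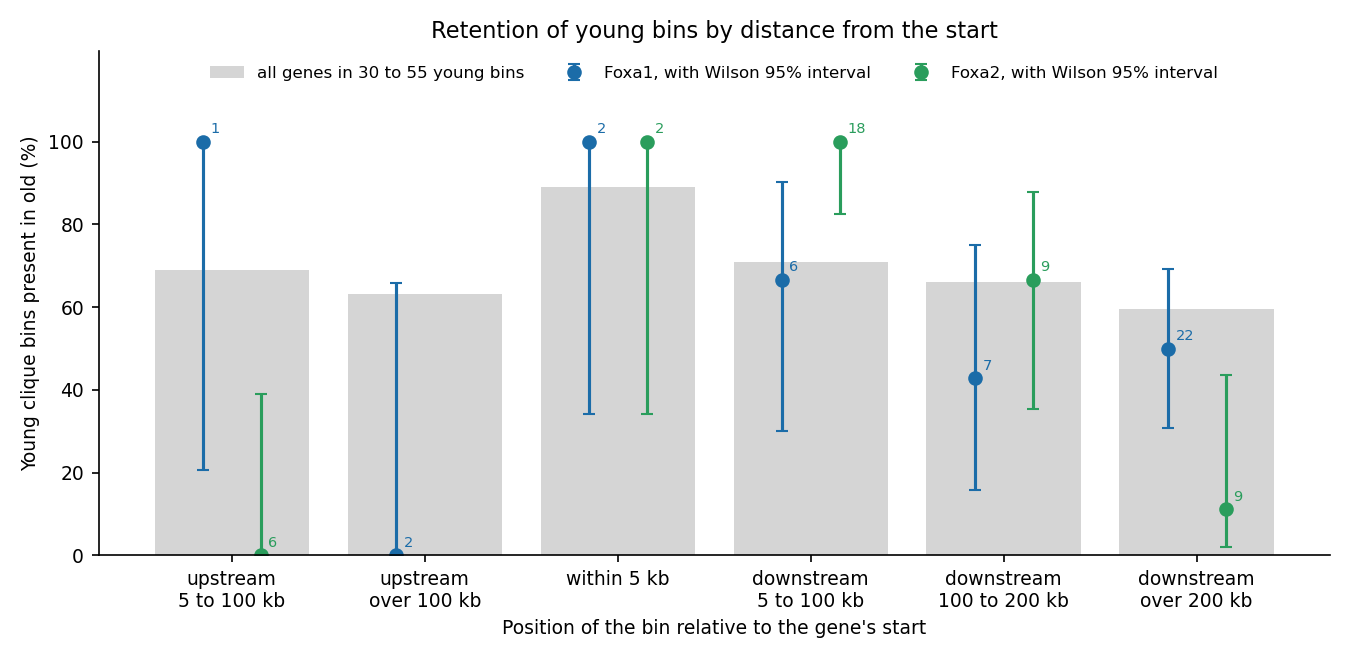
Share of young clique bins present in the old network (vertical, percent) by position relative to the gene's start, pooled over 1373 genes in 30 to 55 young bins (grey bars) and for Foxa1 and Foxa2 (points with Wilson 95% intervals, number of young bins beside each). Foxa2 is at 100% of 18 bins from 5 to 100 kb downstream and at 11.1% of 9 bins beyond 200 kb.

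Foxa3 had a young clique of 12 bins over 235 kb (chr7:18895001-19130000), listing Mypop, Irf2bp1, Sympk and Fbxo46 among its protein-coding genes. In old, 10 of the 12 bins were present (83.3%, 55.2 to 95.3), against a median of 50.0% (quartiles 33.3 and 66.7) for 546 young cliques of like size. These 10 bins were divided. The bin of the start was among 8 that lay in the old clique of 121 bins, and 2 lay in a clique of 6 bins (chr7:18960001-19020000) to which no gene was attached. The Jaccard index of the young and old cliques that list Foxa3 was 0.064, below the 0.125 that the young clique shared with the clique of 6 bins. The best index of the 546 young cliques had a median of 0.315.

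The gene itself lies over 3 bins that were not in 1 clique at either age. In young, the bin of the start (19020001 to 19025000) and the 3′-most bin (19010001 to 19015000) were in the clique of 12, and the bin between them was in a clique of 2 bins. In old, the bin of the start was in the clique of 121, and both others were in the clique of 6. Mypop, a Myb-related transcription factor gene, and Irf2bp1, a transcriptional corepressor gene, lie downstream of Foxa3. Both were listed with Foxa3 in young and in no old clique. Of the 3 young bins over Mypop, 1 was in the old network, in the clique of 6. Of the 2 over Irf2bp1, 1 was, in the clique of 121.

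The old Foxa3 clique spanned 1075 kb (chr7:18895001-19970000), and 116 of its 121 bins were upstream of the bin of the start. Its bins came mostly from another young clique. Of the 121, 83 lay in a young clique of 98 bins (68.6%), 8 in the young Foxa3 clique (6.61%), 4 in a clique of 4 bins (3.31%), and 26 were not in the young network. The clique of 98 (chr7:19130001-19965000) began at the bin directly after the last bin of the young Foxa3 clique. All of its 83 bins that were present in old were in the old Foxa3 clique, and its Jaccard index with that clique was 0.61. The clique of 4 (chr7:19070001-19095000) lay between bins of the young Foxa3 clique. By Jaccard index, the old clique that lists Foxa3 was closest to a young clique that did not list it.

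**Figure D4:**
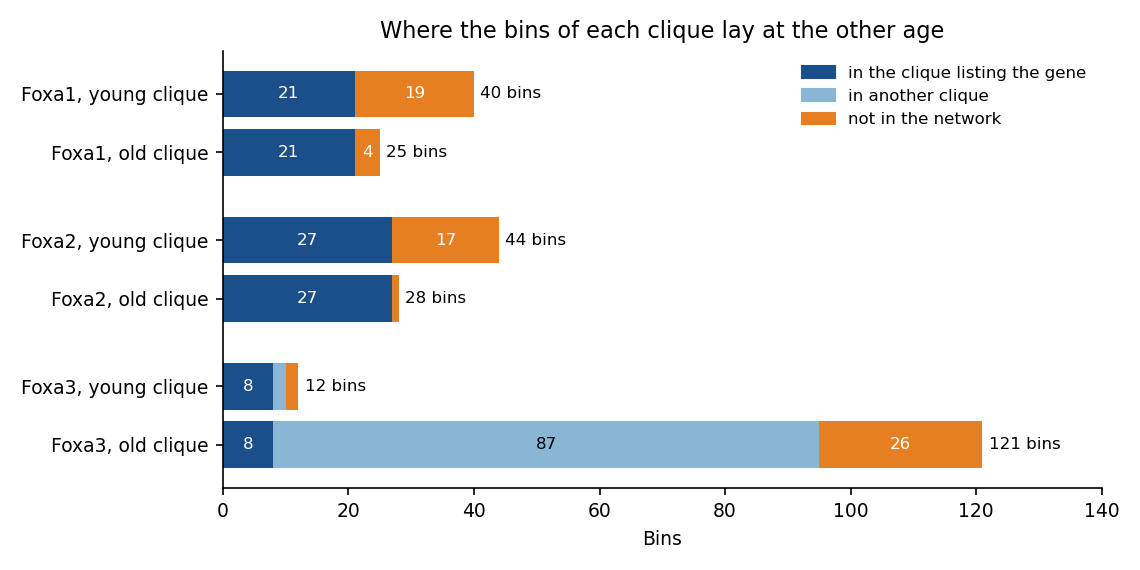
Number of bins (horizontal) in each clique that lists a FoxA gene, split by where the same bins lay at the other age. For Foxa1 and Foxa2 the bins present at the other age are all in the clique that lists the gene, whereas 87 of the 121 bins of the old Foxa3 clique lay in other young cliques and 26 in none.

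The gene names listed with Foxa3 were accordingly more numerous in old. The young clique listed 7 names and the old 60, Foxa3 included, and Sympk, an mRNA 3′-end processing gene, and Fbxo46, an F-box gene, were the other 2 in both. Of the 41 other protein-coding genes of the old clique, 30 had been in the young clique of 98 bins, 2 in the clique of 4, 2 in that of 12, and 7 were listed in no young clique. The 10 nearest to Foxa3 were Sympk, Dmwd, Dmpk, Six5, Fbxo46, Qpctl, Snrpd2, Gipr, Opa3 and Vasp. Dmwd and the homeobox gene Six5 were in the young clique of 4 bins. Dmpk, a muscle protein kinase gene, and Gipr, the receptor gene of the incretin hormone GIP, were listed in old only, although a young clique of 4 bins overlapped Dmpk. Qpctl, Snrpd2, Opa3 and Vasp were in the young clique of 98. Farther upstream that clique held the apolipoprotein genes Apoe, Apoc1, Apoc2 and Apoc4, and Bcl3, a nuclear factor kappa B regulator gene, all 5 chosen after their values were seen.

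Bins near Foxa3 were also more numerous in old, unlike those near Foxa1 and Foxa2. Within 250 kb of the start there were 34 young and 43 old bins for Foxa3, 24 and 16 for Foxa1, and 44 and 28 for Foxa2. The ratios of old to young were 1.26, 0.667 and 0.636. Over 5018 of the genes listed at both ages the median ratio was 0.769 (quartiles 0.647 and 0.92). Of these, 168 had a ratio at least that of Foxa3. Neighbouring genes share bins, so these are not all separate loci. At Foxa3 29 bins were shared, 5 were young only and 14 old only, at Foxa1 14, 10 and 2, and at Foxa2 27, 17 and 1. The loci also differed in gene content. Within 250 kb there were 24 other protein-coding genes around Foxa3, 2 around Foxa1 and none around Foxa2, and within 500 kb there were 44, 4 and 3. In the same 500 kb the young Foxa3 clique held 22.2% of 54 bins, which fell in 5 cliques, and the old one 85.3% of 68 bins, in 4 cliques. For Foxa2 the shares were 95.7% of 46 bins and 100% of 28.

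The genes with young and old sizes nearest to a member, over the 2 networks and outside its own cliques, were Egfr (40 and 25 bins), Acly and Cnp (both 40 and 26) for Foxa1, and Amn1, Etfbkmt and Resf1 (46 and 27) for Foxa2. For Foxa3 they were Cdc34 and Polrmt (8 and 160) and Aspdh (10 and 74). The distance in log2(bins + 1) was 0 for Egfr, 0.054 for Acly and Cnp, 0.081 for the 3 near Foxa2, and 0.66 and 0.74 for those near Foxa3. Genes of 1 clique have the same values, so such names stand for cliques.

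Of 41 other forkhead genes 18 were listed, a share like the 43.8% of all protein-coding genes, and their median size was below Foxa1 and Foxa2 at both ages, with median sizes of 13 bins in young and 8.5 in old. In old, 11 of the 18 were smaller and 7 were larger, with a median log2 of -0.28, beside -0.93 over all 9595 genes listed at either age (78.5% smaller and 17.9% larger). Relative to the mean clique of each age, 58.6% of those genes were smaller in old and their median was -0.32. The 4 lists that follow are read against the same shares and medians. Foxp1 was in cliques of 22 and 2 bins, and Foxk2 in cliques of 120 and 20. Foxo1, through which insulin restrains glucose production, was at 30 and 9, and Foxq1 at 18 and 6. Foxj1, a regulator of motile cilia, was listed in old only, in 40 bins. Among those listed at 1 age (3 in old only and 1 in young only) were also Foxc1, in 2 old bins, and Foxp2, in 3 young bins. No listed forkhead gene had as large an old clique as Foxa3, and the next was Foxj1. Relative to its age's mean, the size was smaller in old for 7 of the 18 and the median was 0.33.

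Of 20 liver factors that work beside FoxA, 19 were smaller in old, where 78.5% of all genes were, and 2 of the 19 were listed in young only. Their median was -0.58, beside -0.93 for all genes, with median sizes of 36 and 23 bins. For the 18 listed at both ages it was -0.45, beside -0.63 for all genes listed at both ages. Hnf4a, a nuclear receptor central to hepatocyte identity, was listed in 65 young bins and Nr2f2 in 10, and neither was listed in old, although old cliques of 25 and 3 bins overlapped them. Hhex, a homeobox gene of early liver, was at 15 and 3 bins, Tbx3 at 12 and 3, and the xenobiotic receptor gene Nr1i2 at 57 and 21. Nr0b2, which encodes the bile acid feedback repressor SHP, was the 1 with the larger old clique, at 9 and 22. Gata4, which binds the albumin enhancer together with FoxA, was at 35 and 25 bins, close to Foxa1, and was chosen after its values were seen. Relative to its age's mean, the size was smaller in old for 10 of the 20, with a median of 0.05.

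Of 22 genes known as FoxA targets 21 were listed, and all 21 were smaller in old by the gene column and 20 by gene overlap, beside 78.5% of all genes. Their median was -0.61, beside -0.93 for all genes, with median sizes of 52 and 20 bins. For the 20 listed at both ages the median was -0.60, close to the -0.63 of all genes listed at both ages. Cpt1a, the carnitine palmitoyltransferase gene of mitochondrial fat oxidation, was at 126 and 24 bins. Tat, a glucocorticoid-induced aminotransferase gene, was at 41 and 12, Mttp, needed for lipoprotein assembly, at 13 and 4, and Pklr, the liver pyruvate kinase gene, at 42 and 15. Alb and Afp, neighbours whose enhancers are classical FoxA sites, shared cliques of 60 and 41 bins, and Ttr, on whose promoter FoxA was first purified, was at 52 and 28. These 3 were chosen after their values were seen. Relative to its age's mean, the size was smaller in old for 10 of the 21 and the median was 0.01.

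Among insulin and cofactor genes that act on FoxA, 13 of 17 were listed, 10 of them smaller in old, 2 larger and 1 equal, a share near the 78.5% of all genes (median -0.91, beside -0.93). Relative to its age's mean, the size was smaller in old for 8 of the 13 and the median was -0.30, beside -0.32. For the 11 listed at both ages the median without this scaling was -1, beside -0.63 for all genes listed at both ages. Crtc2, a coactivator of the fasting response, was at 18 and 2 bins, Irs1, an insulin receptor substrate gene, at 29 and 10, and Ppargc1b, which encodes a FoxA2 coactivator, at 55 and 20. Creb1 and Tle1 were listed in old only, in 2 bins each, although a young clique of 8 bins overlapped Tle1. Of 10 genes for SWI/SNF subunits and histone acetylation, 8 were smaller in old and 2 larger, again near the share of all genes. Their median of -1.26 was -0.56 by gene overlap, -0.49 for the 6 genes listed at both ages and -0.68 relative to the mean of each age, where 5 of the 10 were smaller. The acetyltransferase genes Crebbp and Ep300 were at 12 and 2 and at 14 and 3 bins, Kat2b at 34 and 22 and Arid1a at 29 and 22. Arid1b, Hdac3 and Smarca2 were listed in young only, in 37, 23 and 19 bins, although old cliques of 17, 3 and 13 bins overlapped them.

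**Figure D5:**
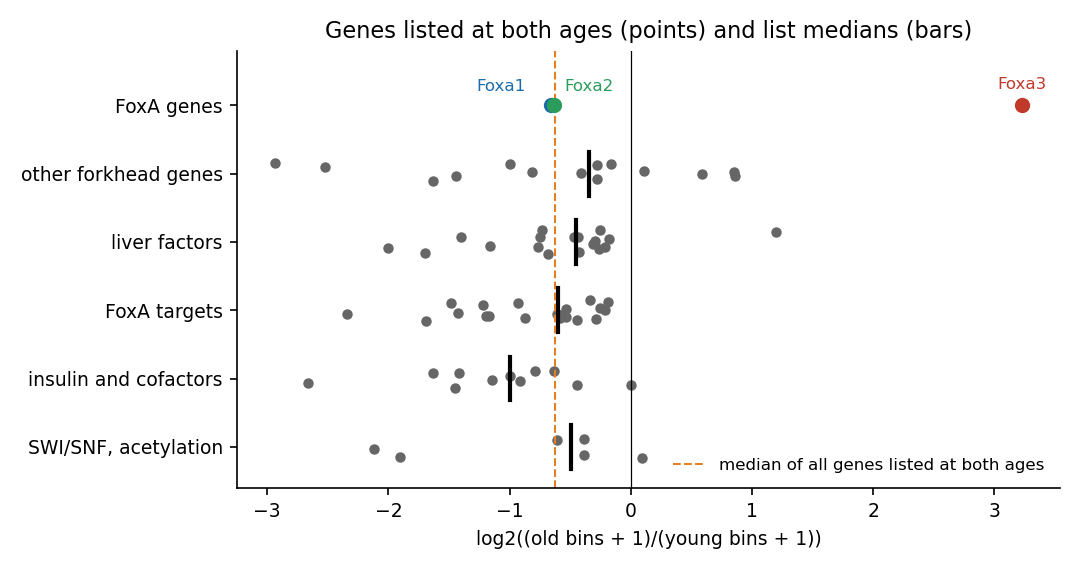
Values of log2((old bins + 1)/(young bins + 1)) (horizontal) for genes listed at both ages, by list (points, with bars at the medians of these genes, which leave out genes listed at 1 age), and for the 3 FoxA genes. Foxa1 and Foxa2 sit at the dashed median of all genes listed at both ages (-0.63), and Foxa3 at 3.23 lies to the right of every plotted point of the 5 lists.

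Marker genes were looked up to check the labelled cell type, although a listing is not a level of expression. Of 10 hepatocyte markers 9 were listed in young and 8 in old, Serpina1a was listed at neither age and Hnf4a in young only. Among 8 cholangiocyte markers 3 were listed in young and 2 in old, while Krt19, Krt7 and Epcam were listed at neither age. Of 8 sinusoidal endothelial markers 3 were listed in young (Lyve1 in 25 bins, Pecam1 in 4 and Oit3 in 32) and 1 in old (Lyve1 in 3). Of 8 stellate cell markers 1 was listed in young (Reln in 2 bins) and 0 in old. Of 8 lymphocyte markers 1 was listed at both ages (Nkg7 in 8 and 7 bins), and of 8 macrophage markers 0 at either. The part of other cells in the FoxA cliques was not tested. The old network had 40304 bins and 5973 cliques, and the young 56928 bins and 5401 cliques.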

How the data were processed

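The deposited tables give, per the file headers, the bins of each network with mm10 coordinates and the cliques with their number of bins, genes and bin names. The sources used here do not say how libraries of an age were combined, how loops and cliques were called, or how genes were attached. Bowtie2, HiC-Pro, mm10 and GRCm38 are named in the submitters' processing notes. Reads and valid contacts per library are unknown. On inspection, every bin was 5 kb and in 1 clique.

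Gene names were matched to protein-coding genes of the RefSeq table of GRCm38.p6 by symbol or unique synonym (9604 of 16197 names matched, giving 9595 genes). In young, 94.3% of the listed genes with a start in that table had a start in a bin of a clique listing them, and in old 91.9%. Bins were matched by position. The size of a gene is that of the largest clique listing it, with a pseudocount of 1. Starts come from the RefSeq promoter table, as that of the outermost transcript where several are given. Protein sequences were not used here. The members, lists and alternatives were chosen with earlier results of these data known. Genes named are the members, genes listed with each (up to 10 nearest) or within 250 kb, up to 4 genes per list with the largest absolute log2 value and up to 3 listed at 1 age, the 3 genes nearest in size to each member, and any said to be chosen later. Bin matching and the log2 value were tested on simulated data. Python 3.11.15, pandas 2.3.3 and SciPy 1.17.1 were used.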

Additional observations from a re-analysis of the deposited data

How the results depend on the processing

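No paired analysis was possible because the tables hold 1 network per age and name no library, replicate or batch, so no replicate could be left out either. The log2 value of each FoxA gene kept its sign under all 5 alternatives for clique size. With a pseudocount of 5 the log2 values were -0.58 for Foxa1, -0.57 for Foxa2 and 2.89 for Foxa3. Relative to the mean clique of each age they were -0.034, -0.0084 and 3.85, and with young sizes scaled by the ratio of bins in the networks -0.17, -0.15 and 3.68. Gene overlap in place of the gene column, and the sum over cliques, changed none of the 3. Counting a bin within 1 bin as matched raised the share of young bins present in old to 72.5% for Foxa1 and 100% for Foxa3, and that of old bins present in young to 96.0% for Foxa1, 100% for Foxa2 and 90.1% for Foxa3. Counting protein-coding genes only, the genes listed with the member at both ages were 3 instead of 5 for Foxa1 and 0 instead of 1 for Foxa2. Ratios of old to young bins near the gene ran from 0.667 to 0.778 for Foxa1, 0.609 to 0.808 for Foxa2 and 1.12 to 1.37 for Foxa3 under the other windows and with cliques of at least 3 bins.

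Relative to the mean clique of each age, genes smaller in old numbered 10 of the liver factors (median log2 0.053), 10 of the FoxA targets (0.0058), 7 of the other forkhead genes (0.33) and 5 of the 10 SWI/SNF and acetylation genes. Of the 6 SWI/SNF and acetylation genes listed at both ages, 5 were smaller in old without this scaling. The insulin and cofactor median was -0.30 relative to the mean clique of each age. The planned comparison of protein sequences was not run.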
